A study of Homo sapiens with 4 samples.

Results

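Keratins are the intermediate filament proteins of epithelial cells. RNA-seq of SKOV3, a long-established line of human ovarian cancer cells, was used to compare them between cells on a tissue culture plate (TCP) and tumor spheroids on polymer X. The keratin genes were all rows of the deposited table whose symbol is KRT, a number and at most one letter from A to C. Keratin-associated protein genes were left out. This gave 55 genes of the 19475 symbols in the table, each represented by the transcript whose FPKM averaged highest. They comprised 29 type I and 26 type II keratins. By the epithelium in which each is mainly known, 5 were classed as simple, 20 as stratified and 26 as hair keratins, the latter including those of the hair follicle sheaths. The other 4 genes, KRT23, KRT24, KRT80 and KRT222, fit none of these classes.

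The labels give 2 libraries of SKOV3 cells on TCP at day 0, which the series describes as a 2D-cultured control, and 2 libraries of spheroids on polymer X at day 8. Nothing in the labels states whether replicates were separate cultures, so each p-value measures only the spread between these libraries. Polymer X is a polymer thin film on which the cells attach poorly. Substrate and day changed together, and the medium of the TCP cells is unclear. The labels give serum replacement for every library, while the methods give fetal bovine serum for maintenance of SKOV3. Effects of substrate, time and medium therefore cannot be told apart.

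A keratin filament is built from heterodimers of a type I (acidic) and a type II (basic or neutral) chain, so each cell normally makes members of both types. KRT8 and KRT18 are the primary pair of simple, single-layered epithelia, and KRT7 and KRT19 are added in ducts and glands. KRT5 with KRT14 marks the basal layer of stratified epithelia, KRT1 with KRT10 the layers above it, and KRT6, KRT16 and KRT17 appear in wounded epidermis. Hair keratins such as KRT81 and KRT86 are rich in cysteine and form the hair shaft. Ovarian carcinomas are commonly positive for KRT7, KRT8 and KRT18.

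Values are FPKM, sequenced tags scaled to transcript length and to the total tags of the library. The steps between low values gave the number of tags behind each library, from 38402000 to 44914000. In all 4 libraries, 100% of the low values examined were whole tag numbers to within 0.1, so each level below can also be read in tags. Between 50.1% and 55.9% of those tag numbers were even. Whether some tags were mates of the same fragment was not tested, and intervals from tags cover counting error only. Of the 55 keratins, 8 passed the filter on low values (FPKM 1 or more in 2 or more libraries). They were fitted with limma on log2(FPKM + 1) among 11964 genes in all, with Benjamini-Hochberg adjustment. On this scale the changes of weakly expressed genes come out too small. A gene was called when its adjusted p was under 0.05 and its log2 change was 1 or more in size.

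The label of the cells was checked against marker lists. Of 10 ovarian carcinoma markers, 7 passed the same filter on low values, with ERBB2 and PAX8 at 198 to 913 and 48.8 to 108, while WT1 and MUC16 had at most 0.421. The summed level of the list was 1780 and 1811 on TCP and 2486 and 2512 on polymer X. VIM alone made up 1474 and 1496 of the TCP sums. ERBB2 went from 198 and 206 to 913 and 860, and CDH2 from 54.6 and 54.6 to 27.8 and 26.0. EPCAM passed the filter through polymer X alone, with 0.168 and 0.104 on TCP and 1.39 and 1.325 on polymer X. CLDN4 went from 3.19 and 3.64 to 17.7 and 16.8, and CDH1 had 6 and 6 tags against 69 and 66. WT1 went the other way, with 23 and 56 tags against 14 and 1. Of 5 squamous keratinocyte markers, 1 (DSC3) passed it, DSG3 and IVL had 0 tags in all libraries, and the summed FPKM was 3.37 and 3.78 against 3.43 and 3.27. Markers of fibroblasts summed to 8.64 and 8.92 on TCP and to 53.5 and 48.7 on polymer X, with 2 of 4 past the filter, and those of leukocytes to 17.2 and 17.4 against 43.1 and 45.7, with 1 of 4 (CD68). PTPRC had 1 and 0 tags on TCP and 92 and 106 on polymer X, and CD3E had 0 throughout. DCN had 4 and 0 tags against 1203 and 1044, and PECAM1 had 0 and 0 tags against 102 and 83. COL1A2 made up most of the fibroblast sums, at 8.41 and 8.75 against 45.8 and 42.2. PDGFRA had 26 and 25 tags against 67 and 78, and PDGFRB 23 and 21 against 26 and 6. Of the endothelial list, CDH5 had 1 and 2 tags against 4 and 1, and VWF 1 and 3 against 7 and 9. Endothelial markers summed to 0.009 and 0.019 against 0.617 and 0.489, and mesothelial markers to 1.91 and 2.01 against 1.86 and 1.53. Hair matrix markers summed to 4.53 and 4.63 against 5.78 and 5.11. Most of that sum was MSX2, at 4.525 and 4.525 against 5.60 and 5.02, while LEF1 and FOXN1 had at most 18 and 7 tags. Whether any such cells were present, and what part they had in the keratin levels below, was not tested.

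SKOV3 cells on TCP expressed 8 keratins above the filter, and polymer X spheroids had lower levels of 7 of them. KRT81 had the largest fall, 10.9-fold in mean FPKM, and KRT80 fell 3.42-fold. KRT8 and KRT18, the main chains in both conditions, were 1.84-fold and 1.36-fold lower. KRT15 was the 1 tested keratin with a higher level on polymer X. Of the 8 genes, 2 were called lower, where 9.45% of all tested genes were called lower, and 0 were called higher, where the share of all tested genes was 10.7%. Without the fold change minimum, 7 keratins were lower and 1 was higher, while 43.6% and 37.4% of all tested genes were. In all 8 the libraries of the conditions did not overlap, 7 below and 1 above TCP, against 48.4% and 41.9% of all tested genes. The median log2 fold change of the 8 was -0.60, against -0.06 over all tested genes. The size of the moderate changes depended on scaling. With quantile normalization, the log2 change was -0.56 for KRT8, -0.10 for KRT18, -0.80 for KRT7 and -0.23 for KRT10. It was -0.61 for KRT86 and 0.41 for KRT15. Median scaling moved them less, to -0.83 for KRT8, -0.40 for KRT18, -0.72 for KRT7 and -0.34 for KRT10. For KRT86 and KRT15 it gave -0.27 and 0.66. Each kept the direction given below. In these bulk libraries, fewer cells with a keratin and less of its RNA per cell cannot be told apart.

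**Figure D1:**
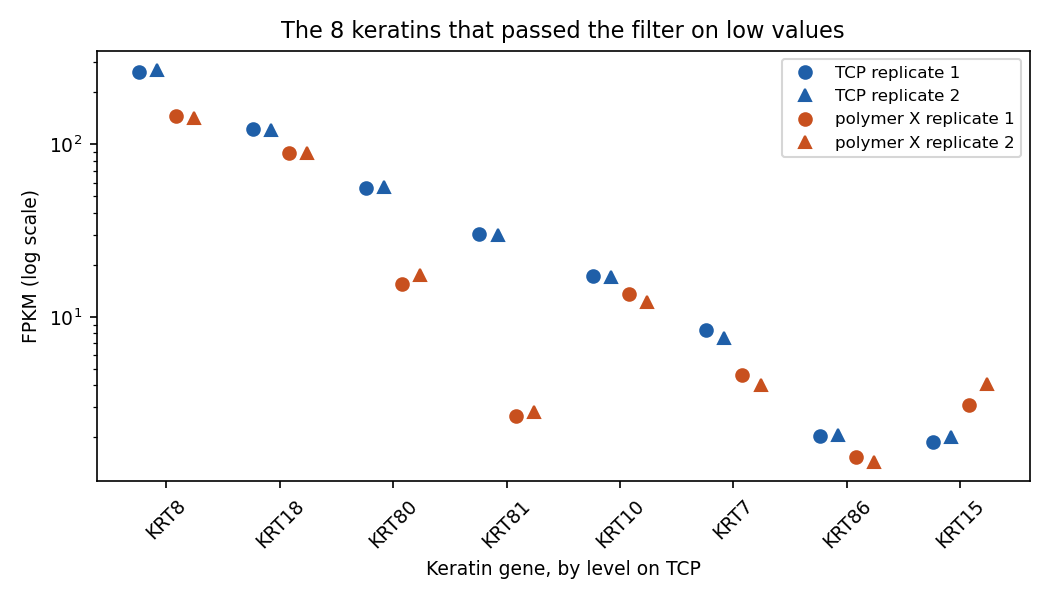
FPKM on a log scale in each of the 4 libraries for the 8 tested keratins, ordered by level on TCP, with blue symbols for TCP, orange symbols for polymer X, circles for replicate 1 and triangles for replicate 2. The libraries of the 2 conditions do not overlap for any of the 8 genes, and only KRT15 lies higher on polymer X.

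Among the simple keratins, KRT8 (NM_002273, hg19 chr12:53290971-53298868, minus strand) was the most abundant keratin of every library. Its FPKM was 262 and 269 in TCP replicates 1 and 2, and 146 and 143 in polymer X replicates 1 and 2. Both polymer X libraries lay well below both TCP libraries. The mean was 265 ± 5.18 (SD, n = 2) on TCP and 144 ± 1.96 (SD, n = 2) in the spheroids. The log2 change was -0.87 (SE 0.06, limma adjusted p = 6.4e-07), which is below the fold change minimum. By FPKM, KRT8 ranked 139 and 126 among all symbols on TCP and 228 and 225 on polymer X. Its 3 transcripts in the table had log2 fold changes between -0.87 and -0.85.

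KRT18, the type I partner of KRT8 (NM_000224, hg19 chr12:53342843-53346685, plus strand), had an FPKM of 123 and 121 on TCP and of 89.3 and 89.6 on polymer X. The conditions did not overlap, and the log2 fold change was -0.44 (SE 0.05, limma adjusted p = 4.3e-05). With quantile normalization it was -0.10, with a limma adjusted p of 0.107. KRT7 of ductal and glandular epithelia (NM_005556, hg19 chr12:52626954-52642709, plus strand) stood at 8.33 and 7.57 on TCP and at 4.57 and 4.04 on polymer X. Its log2 fold change was -0.76 (SE 0.08, limma adjusted p = 1.6e-05). KRT19 remained under the filter, with an FPKM of 0.338 and 0.441 on TCP and 0.734 and 0.655 on polymer X. KRT20, known from intestinal epithelium, had 0 tags in 3 libraries and 4 in polymer X replicate 2. No simple keratin was called in either direction, although the 3 tested ones each had an adjusted p under 0.05.

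KRT8 and KRT18 have many processed pseudogenes. In the GENCODE transcripts of GRCh38, 37.1% of the stretches of 50 bases of KRT8 and 47.6% of those of KRT18 also occur in a transcript of another gene. For KRT18 this includes KRT8 transcripts that run across it on the opposite strand, with which it shares 21.6% of its stretches. How tags with several matches were treated is not given in the sources used here, and counting ignored strand, so both levels are uncertain to that extent. KRT7 shares 10.4% of its stretches with the antisense gene KRT7-AS.

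In the stratified class, 2 of 20 keratins were tested. KRT10, the type I chain of the suprabasal epidermis (NM_000421, hg19 chr17:38974369-38978863, minus strand), had an FPKM of 17.13 and 17.01 on TCP and of 13.5 and 12.2 on polymer X. The log2 change was -0.38 (SE 0.06, limma adjusted p = 4.2e-04). It overlaps TMEM99 on the opposite strand, which went from 8.56 and 8.33 to 6.86 and 7.08. Its type II partner KRT1 had 0 tags in every library. KRT15, a type I keratin of basal layers and the hair bulge (NM_002275, hg19 chr17:39669997-39675270, minus strand), went the other way. It had an FPKM of 1.88 and 2.01 on TCP and of 3.09 and 4.10 on polymer X, so that the polymer X replicates differed from each other by more than the TCP replicates did. The log2 fold change was 0.63 (SE 0.11, limma adjusted p = 4.0e-04), and leaving out single libraries moved it between 0.47 and 0.79. When low-level genes were also tested, its adjusted p was 0.051. The basal pair KRT5 and KRT14 reached at most 7 and 4 tags in any library. KRT17 had 0 to 2 tags per library, and KRT6C had 0 in all 4.

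Of the 26 hair keratins, KRT81 and KRT86 passed the filter. Both are type II chains of the hair shaft, and they are close paralogs of KRT83. Over the coding sequence, KRT81 and KRT86 share 94.5% of aligned bases, with one identical run of 605 bases, and KRT81 and KRT83 share 93.3%. A stretch of 90 coding bases is printed here, 5′ to 3′, as an example of how these transcripts differ. Only windows within a single exon of each gene, aligned without gaps in all 3, were searched. Other parts of the coding sequence can therefore differ more. The printed stretch is the first such window with the most differences between KRT81 and KRT86, of which there are 5. Capitals mark the positions at which the 3 genes are not all alike. It lies in exon 5 of KRT81 (chr12:52288011-52288100, minus strand, GRCh38), exon 7 of KRT86 (chr12:52305288-52305377, plus strand) and exon 5 of KRT83 (chr12:52316886-52316975, minus strand), from GENCODE transcripts.
KRT81: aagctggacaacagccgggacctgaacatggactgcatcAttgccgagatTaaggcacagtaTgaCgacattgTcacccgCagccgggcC
KRT86: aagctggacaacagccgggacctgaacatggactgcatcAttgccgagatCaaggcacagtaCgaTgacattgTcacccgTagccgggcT
KRT83: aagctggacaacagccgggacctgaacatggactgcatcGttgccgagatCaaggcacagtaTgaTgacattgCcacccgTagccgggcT

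KRT81 (NM_002281, hg19 chr12:52679697-52685299, minus strand) had an FPKM of 30.0 and 29.9 on TCP and of 2.67 and 2.81 on polymer X. The replicates of each condition were close together and the conditions far apart. The mean fell from 30.0 ± 0.0686 (SD, n = 2) to 2.74 ± 0.0976 (SD, n = 2), and the log2 change was -3.05 (SE 0.06, limma adjusted p = 9.2e-10). In tags, this was 2189 and 2552 on TCP against 203 and 217 on polymer X. By log2 fold change, KRT81 ranked 16 among the 11964 tested genes, counted from the largest fall.

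KRT86 (NM_001320198, hg19 chr12:52668429-52702947, plus strand) spans KRT81 on the opposite strand. It had an FPKM of 2.04 and 2.05 on TCP and of 1.53 and 1.44 on polymer X. Its log2 change was -0.29 (SE 0.08, limma adjusted p = 0.0063). Of the 50-base stretches of KRT81, 38.4% also occur in KRT86, and 33.3% of those of KRT86 occur in KRT81. Tags of either gene could therefore be counted for the other or be lost. That depends on how tags with several matches were treated, which is not given. KRT83 had 6 and 5 tags on TCP and 0 in both polymer X libraries. All 3 paralogs were thus lower on polymer X, and the share of the KRT86 and KRT83 tags that came from KRT81 was not tested.

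KRT80 (NM_182507, hg19 chr12:52562780-52585784, minus strand), a type II keratin known from many epithelia, was the third most abundant keratin on TCP. Its FPKM was 56.0 and 56.9 on TCP and 15.5 and 17.5 on polymer X. The log2 fold change was -1.72 (SE 0.07, limma adjusted p = 2.3e-08), and it ranged from -1.80 to -1.63 when single libraries were left out. Only 0.420% of its 50-base stretches occur in another gene. On TCP it ranked 1025 and 975 among all symbols by FPKM, and on polymer X it ranked 3607 and 3105.

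**Figure D2:**
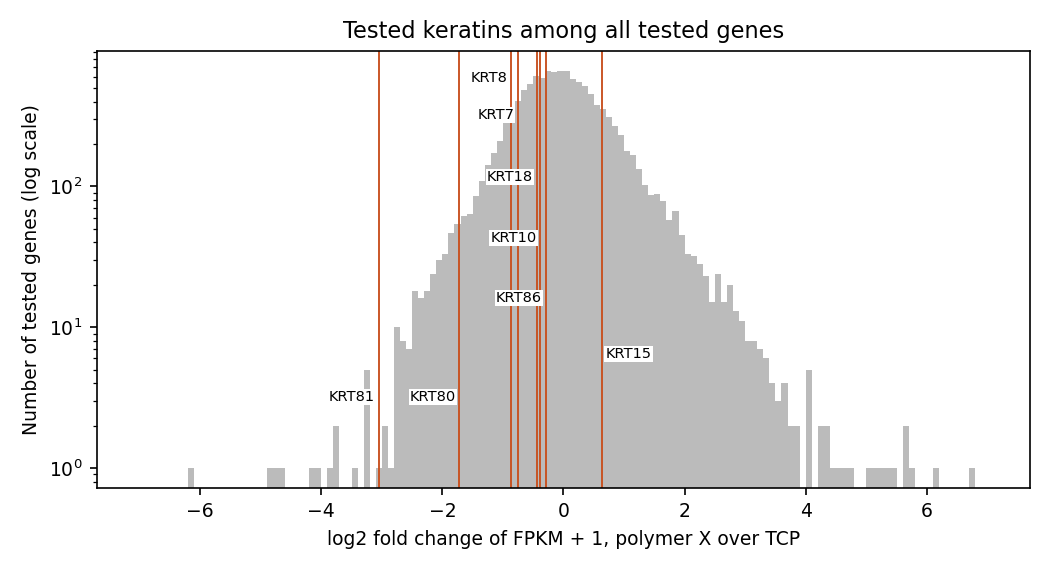
Number of tested genes (log scale) at each log2 fold change of FPKM + 1, polymer X over TCP, with a line at each of the 8 tested keratins. KRT81 at -3.05 and KRT80 at -1.72 lie in the lower tail, and the other 6 keratins lie between -0.87 and 0.63.

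Summed levels describe the balance of the family. Over all keratins, the FPKM summed to 501 and 506 on TCP and to 278 and 277 on polymer X, so the total was 1.81-fold lower. Summed simple keratins went from 395 ± 3.23 (SD, n = 2) to 239 ± 2.16 (SD, n = 2), and summed hair keratins from 32.4 ± 0.163 to 4.48 ± 0.0467, most of it KRT81. The stratified sum, most of it KRT10, was 19.2 ± 0.0198 on TCP and 17.8 ± 0.212 on polymer X. KRT8 and KRT18 together made up 76.7% and 77.0% of the summed keratin FPKM on TCP and 84.5% and 83.9% on polymer X. With quantile normalization, the log2 ratio of the simple sum was -0.41 in place of -0.73, and that of the stratified sum -0.0616 in place of -0.11. These sums are descriptions and were not tested.

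The 2 types did not change by the same factor. Type II keratins summed to 358 and 366 FPKM on TCP and to 171 and 170 on polymer X, a 2.12-fold lower level. Type I keratins summed to 143 and 140 on TCP and to 107 in both polymer X libraries, a 1.32-fold lower level. The ratio of type II to type I was therefore 2.51 and 2.60 on TCP and 1.60 and 1.59 on polymer X, closer to 1 in the spheroids. For the primary pair alone, the ratio of KRT8 to KRT18 was 2.13 and 2.23 on TCP and 1.63 and 1.60 on polymer X. The pseudogenes and overlapping transcripts named above enter both ratios.

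**Figure D3:**
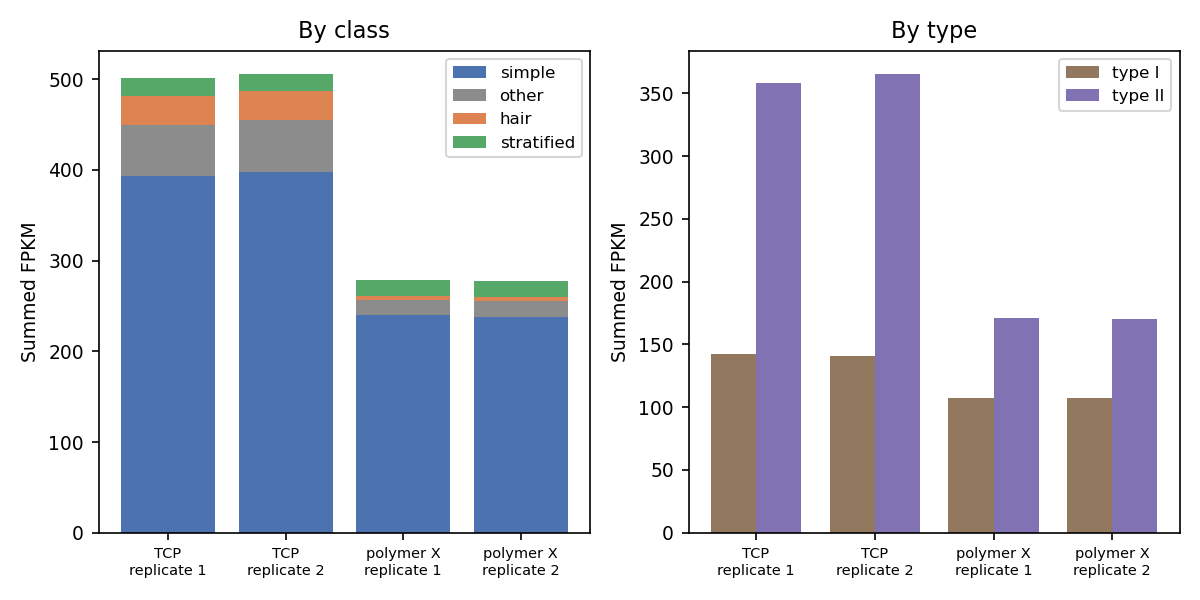
Summed FPKM of the keratin genes in each of the 4 libraries, stacked by class on the left and side by side for types I and II on the right. Total bar height is 501 and 506 on TCP and 278 and 277 on polymer X, and type II bars drop more than type I bars.

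The other 47 keratins lay under the filter and were not tested. Of these, 15 had 0 tags in all 4 libraries, and 14 more had at most 3 tags in each library. A count of 0 in a library allows up to 3 tags. Both polymer X libraries lay above both TCP libraries for 10 of the 47 and below for 4, against 28.3% and 7.91% of all untested genes. Over 3 tags in at least 2 libraries were found for 10 genes. In 7 of these both polymer X libraries lay above both TCP libraries, and in 3 both lay below. Among all 3075 untested genes at this tag level, the shares were 57.7% and 15.5%. A gene can reach this level through 1 condition alone, which favors separation of the conditions. KRT79, KRT23, KRT75 and KRT27 reached it on polymer X alone, and KRT34, KRT33B and KRT83 on TCP alone. Neither the counts of separated genes nor the intervals below allow for this choice. The ratios below come from tags summed over the 2 libraries of a condition and scaled to depth, with exact 95% intervals for counting error.

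KRT79, a type II keratin of the hair canal and sebaceous gland (NM_175834, hg19 chr12:53215231-53228077, minus strand), had the most tags of these genes on polymer X. It had 1 and 0 tags on TCP and 54 and 64 on polymer X, at an FPKM of 0.656 and 0.766 in the latter. The ratio was 122 (21.4 to 4851), and it rests on 1 TCP tag. KRT78, its neighbor and a type II keratin of stratified epithelia, had 2 and 7 tags on TCP and 26 and 29 on polymer X, a ratio of 6.31 (3.09 to 14.5). KRT4, a mucosal type II keratin on the other side of KRT79, had 4 and 0 tags against 6 and 11, a ratio of 4.39 (1.43 to 17.9). Neither KRT78 nor KRT4 shares a stretch of 50 bases with another gene. The 3 genes lie next to each other on chromosome 12 and each had more tags on polymer X, while KRT8 and KRT18, the next keratins along the chromosome, were lower there.

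KRT19 had 19 and 29 tags on TCP and 43 and 39 on polymer X, a ratio of 1.76 (1.22 to 2.57). KRT23, a type I keratin outside the 3 classes, had 1 and 0 tags against 13 and 7, a ratio of 20.6 (3.30 to 856). KRT75 of the companion layer of the hair follicle had 0 and 2 tags against 8 and 9, a ratio of 8.77 (2.08 to 78.3). For KRT27 of the inner root sheath, the tags were 2 and 0 against 7 and 4, a ratio of 5.68 (1.24 to 52.7). These 4 genes were higher on polymer X in both libraries, at levels below an FPKM of 1.

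Hair shaft keratins made up the 3 genes with lower tags. KRT34 had 18 and 12 tags on TCP and 0 in both polymer X libraries, at least 4.95-fold lower when 3 tags are allowed per library. KRT33B, next to it on chromosome 17, had 4 in each TCP library and 0 in each polymer X library, at least 1.30-fold lower, and KRT83 was at least 1.81-fold lower by the same limit. Together with KRT81 and KRT86, 5 of the 17 hair shaft keratins lay lower on polymer X without overlap, 0 lay higher, and the other 12 overlapped or were at 0. Because KRT86 and KRT83 resemble KRT81 in sequence, these 5 falls may not be separate from each other, which was not tested. The shares below TCP without overlap were 48.4% of all tested and 7.91% of all untested genes. KRT33B shares 27.7% and KRT34 shares 11.4% of its 50-base stretches with other genes, KRT33A most for the former and KRT33B most for the latter. Of the genes with over 3 tags in 1 library alone, KRT16 had the most, with 0 and 0 tags on TCP and 2 and 14 on polymer X, and was named after its values were seen.

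**Figure D4:**
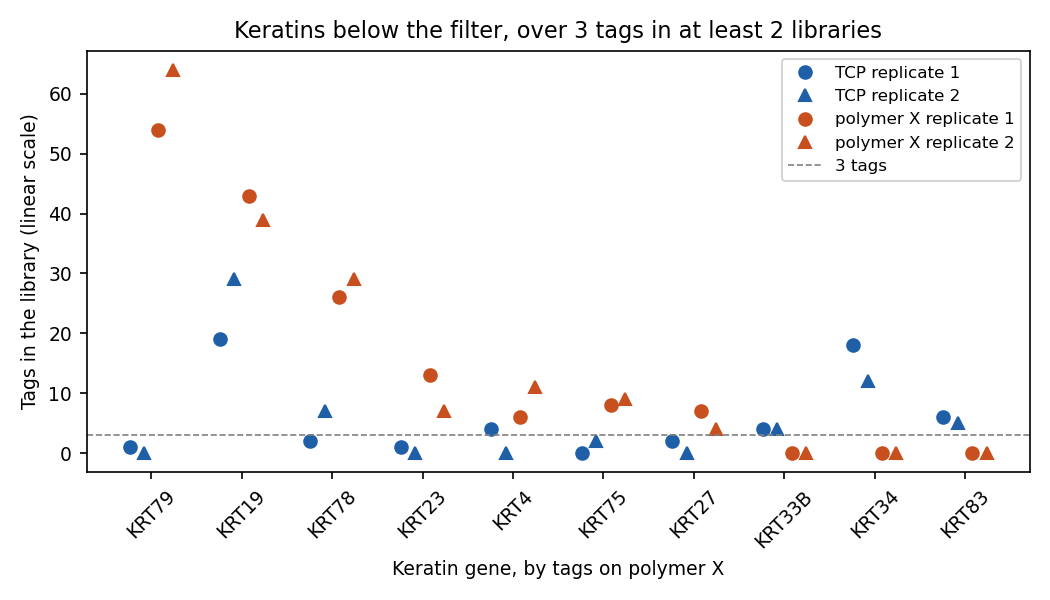
Tags per library for the 10 keratins below the filter with over 3 tags in at least 2 libraries, with a dashed line at 3 tags, blue symbols for TCP and orange for polymer X. KRT79 reaches 54 and 64 tags on polymer X, and KRT33B, KRT34 and KRT83 are at 0 there.

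Keratin genes lie in 2 clusters. Chromosome 12 holds the 26 type II genes and KRT18, and chromosome 17 holds the other 28 type I genes. On chromosome 12 in hg19 order, the 5 genes at the start, KRT80, KRT7, KRT86, KRT81 and KRT83, were all lower on polymer X without overlap, and so were KRT8 and KRT18 at the end. Between them, KRT75, KRT4, KRT79 and KRT78 were higher without overlap, and the remaining 16 overlapped, most of them at or near 0. Over all genes, 48.4% of the tested lay below and 41.9% above without overlap, and 15.5% and 57.7% of the untested with over 3 tags in at least 2 libraries. On chromosome 17, KRT15 and KRT19 are neighbors and both were higher on polymer X, while the neighbors KRT33B and KRT34 were both lower. Of all 29 type I keratins, 7 lay above and 5 below without overlap, the latter including KRT18 on chromosome 12. Among all untested genes, whatever their tags, 28.3% lay above and 7.91% below.

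**Figure D5:**
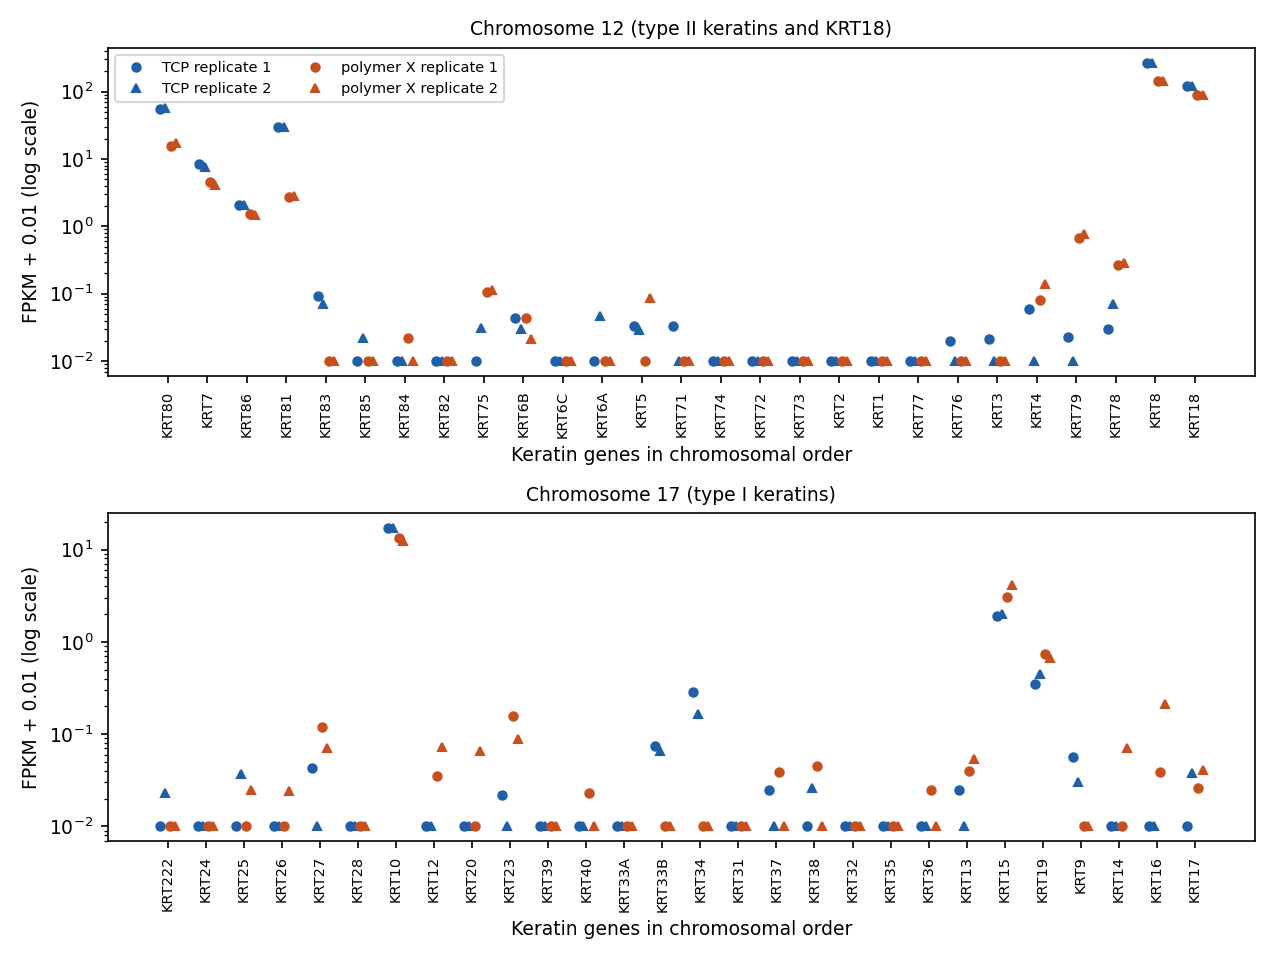
FPKM + 0.01 on a log scale in each library for all 55 keratins, in chromosomal order on chromosome 12 (upper) and chromosome 17 (lower), with blue symbols for TCP and orange for polymer X. The highest levels on chromosome 12 are at both ends, where orange symbols lie below blue ones, and KRT4, KRT79 and KRT78 show the opposite order at low levels.

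Promoters could be read for 34 of the 55 keratins from RefSeq on GRCh38.p14, as the 250 bases before the gene's start. Of the 8 tested keratins, only 2 have an entry, KRT10 and KRT8, the latter at an upstream start of that gene. KRT7, KRT15, KRT18, KRT86 and the 2 called genes, KRT80 and KRT81, have none. The shares below therefore do not describe them. TATAAA, the letters of a TATA box, was present on either strand in 20 of the 34, or 58.8%, and in 11.1% of all 27305 promoters. In 15 of the 34, or 44.1%, it began 25 to 35 bases before the start, against 2.86% of all promoters. GGGCGG, a GC box, was present in 4 of the 34, or 11.8%, and in 42.3% of all promoters. TTCNNNGAA, the letters of a STAT site, occurred in 2 of 34, or 5.88%, against 6.78% of all, and TGANTCA, an AP-1 site, in 0 of 34, against 6.60% of all. No motif contains another, and a match describes letters only. The sequences are shown for the untested keratin with the most tags on polymer X (KRT79), the neighbors with 0 tags there (KRT33B and KRT34), and the tested stratified keratin with an entry (KRT10). They are printed 5′ to 3′, with capitals for any of these motifs. KRT79 (chr12:52834312-52834561, minus strand) holds none of the 4. KRT33B (chr17:41369814-41370063, minus strand), KRT34 (chr17:41382307-41382556, minus strand) and KRT10 (chr17:40822615-40822864, minus strand) hold a TATA box that begins 28, 31 and 29 bases before the start.
KRT79: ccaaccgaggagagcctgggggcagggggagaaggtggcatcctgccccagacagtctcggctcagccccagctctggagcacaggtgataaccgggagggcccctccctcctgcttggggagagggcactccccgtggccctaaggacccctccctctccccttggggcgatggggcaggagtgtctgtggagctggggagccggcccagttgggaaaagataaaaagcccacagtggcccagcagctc
KRT33B: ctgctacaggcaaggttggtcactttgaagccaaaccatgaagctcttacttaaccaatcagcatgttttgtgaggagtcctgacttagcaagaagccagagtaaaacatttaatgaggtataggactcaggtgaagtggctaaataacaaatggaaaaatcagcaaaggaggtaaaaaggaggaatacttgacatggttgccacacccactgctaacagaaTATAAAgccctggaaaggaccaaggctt
KRT34: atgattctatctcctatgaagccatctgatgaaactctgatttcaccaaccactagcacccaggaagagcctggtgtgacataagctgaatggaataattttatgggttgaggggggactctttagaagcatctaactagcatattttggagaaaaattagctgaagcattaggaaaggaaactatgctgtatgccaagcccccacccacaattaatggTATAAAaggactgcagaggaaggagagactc
KRT10: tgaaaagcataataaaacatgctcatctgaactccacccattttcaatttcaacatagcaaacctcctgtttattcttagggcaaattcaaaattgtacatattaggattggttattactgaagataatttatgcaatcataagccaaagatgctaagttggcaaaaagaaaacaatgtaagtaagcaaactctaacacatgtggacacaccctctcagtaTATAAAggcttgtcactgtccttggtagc

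Other genes of the filament network were taken from lists written from general knowledge. Of 17 other intermediate filament genes, 9 were tested, 2 were called higher and 2 lower, and the median log2 fold change was -0.17. Over all tested genes, 10.7% were called higher and 9.45% lower. VIM, which encodes vimentin of mesenchymal cells, had an FPKM of 1474 and 1496 on TCP and of 1421 and 1497 on polymer X. Its log2 fold change was -0.03 (SE 0.08, limma adjusted p = 0.77), and the conditions overlapped. The ratio of KRT8 to VIM was 0.178 and 0.180 on TCP and 0.103 and 0.0956 on polymer X. LMNB2 and LMNB1, which encode B-type lamins of the nucleus, fell with log2 fold changes of -2.09 and -1.97. NES (nestin) and PRPH (peripherin) rose with log2 fold changes of 1.15 and 1.13, from FPKM values near 1, and neither was called under quantile normalization.

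Of 26 genes for keratin linkers and partners, 22 were tested, 3 were called higher and 3 lower, near the 10.7% and 9.45% of all tested genes, and the median was -0.19. Under quantile normalization, 2 were lower. PPL, which encodes the cornified envelope and desmosome linker periplakin, had an FPKM of 0.444 and 0.337 on TCP and of 7.85 and 9.32 on polymer X. Its log2 change was 2.78. JUP, the gene of plakoglobin in desmosomes and adherens junctions, rose from 3.02 and 3.17 to 22.0 and 23.6, a log2 fold change of 2.54. TGM2, which encodes a transglutaminase that crosslinks proteins, had a log2 fold change of 1.53. The largest falls were those of TCHP, a keratin filament-binding protein (trichoplein), SFN (14-3-3 sigma) and EIF3K, with log2 fold changes of -1.34, -1.29 and -1.27. PLEC, which encodes plectin, the large linker of keratin to hemidesmosomes, had an FPKM of 81.7 and 86.9 on TCP and of 71.5 and 76.6 on polymer X. Its log2 change was -0.19 (limma adjusted p = 0.019).

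Of 42 genes of the cornified envelope and squamous differentiation, 4 were tested and 19 of the rest had 0 tags. PI3, the gene of the protease inhibitor elafin, was the 1 gene called higher, with an FPKM of 0.331 and 0.567 on TCP and of 5.68 and 5.50 on polymer X. None of the 4 was called lower, and the median was 0.03. The shares called among all tested genes, 10.7% higher and 9.45% lower, apply to this list and the next. Of 31 epithelial transcription factor genes, 13 were tested, 4 were called higher and 0 lower, with a median of 0.11. They included EHF, PRDM1 and ELF3, with log2 fold changes of 2.25, 1.87 and 1.42. EHF and ELF3 encode ETS factors of epithelial cells. TP63, the master factor of stratified epithelia, had 7 and 10 tags on TCP and 0 and 10 on polymer X, and GRHL2 had 1 tag in 1 library.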

How the data were processed

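RNA-seq was analysed in 4 libraries of SKOV3 cells, 2 on TCP (day 0) and 2 on polymer X (day 8). Deposited values are FPKM, which the authors computed with HOMER for 50078 RefSeq transcripts of hg19 from exon tags of both strands. Other libraries named in the command of the file header were not used here. The depth was 38402000 to 44914000 tags per library. The submitters' processing notes also name STAR 2.4.0 and DESeq, without their roles. The deposited Length column, here listed as another unit, gave transcript lengths. Of the 19475 symbols, 10500 had several transcripts, and the one with the highest mean FPKM was kept. The filter on low values required an FPKM of 1 or more in 2 or more libraries, and limma 3.58.1 (R 4.3.3) was fitted to log2(FPKM + 1) (mean-variance trend, no replicate block). No set test was run. The procedure was tested on simulated data. Sequences came from RefSeq promoters (GRCh38.p14) and GENCODE transcripts (GRCh38). Alignments used Biopython 1.88, and plots matplotlib 3.10.9. Coordinates of deposited rows are hg19 as deposited.

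Every keratin that passed the filter is named, as is each other one with over 3 tags in at least 2 libraries. Of each gene list, the 4 that moved most among those called, up and down separately, are named, with VIM, TP63, PLEC and GRHL2. One called gene of these lists is not reported here. The keratins, classes and lists were chosen with earlier results of these data known. Alternatives were a pseudocount of 0.1, testing low genes too, a minimum mean FPKM of 5, median scaling, quantile normalization, the sum of transcripts, the replicate number as a block, no variance trend, other fold change minimums, and each library left out in turn.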

Additional observations from a re-analysis of the deposited data

How the results depend on the processing

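With the fold change minimum held, all 8 tested keratins kept their direction and remained called or not called under each alternative that could give a value, 94 results in all. By adjusted p alone, 2 of them no longer passed, namely KRT15 when low genes were tested too (adjusted p = 0.051 from limma) and KRT18 under quantile normalization (0.107). KRT15 and KRT86 had no value under a minimum mean FPKM of 5, where they are not tested. Where a single library was left out, the lone library of a condition is assumed to vary like the others. Across these fits, 2 keratins were called lower and 0 higher each time, and all genes called ranged from 1289 to 1325 higher and from 1053 to 1234 lower, against 1285 and 1131 with all libraries. The numbers of calls in the lists were the same in each fit, at 2 and 2 (other intermediate filament genes, higher and lower), 3 and 3 (linkers and partners), 1 and 0 (cornified envelope) and 4 and 0 (transcription factors). The log2 ratio of summed FPKM ranged from -0.74 to -0.72 for simple, -0.12 to -0.10 for stratified and -2.87 to -2.85 for hair keratins, and that of type II over type I from -0.71 to -0.66.

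With a minimum mean FPKM of 5, which tests fewer genes, 702 genes were called higher, and the higher calls were 0 for other intermediate filament genes, 0 for the cornified envelope and 1 for transcription factors. Under quantile normalization, 0 other intermediate filament genes were higher and 2 linkers and partners lower (3 otherwise), and the cause was not tested. By adjusted p alone, 4477 genes passed upward and 5212 downward, with 1 and 7 keratins. A log2 minimum of 2 left 281 higher and 150 lower genes, with 1 keratin lower. The summed log2 ratio of simple keratins, -0.73, was -0.68 with median scaling, -0.41 with quantile normalization and -0.75 with summed transcripts. That of stratified keratins, -0.11, was -0.0645 with median scaling, -0.0616 with quantile normalization and -0.0885 with summed transcripts. That of hair keratins, -2.86, was -2.81 with median scaling and -3.01 with quantile normalization, and that of type II over type I, -0.68, was -0.58 with summed transcripts.

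With the replicate number as a block, all counts of calls were as without it, at 1285 genes higher and 1131 lower, and 2 keratins lower and 0 higher. Libraries that share a number deviated from their group means with a correlation of 0.093, so no pairing was assumed.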

Other observations

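Keratin-associated protein genes (KRTAP), which encode matrix proteins around hair keratin filaments, were nearly silent. Of 93 such genes in the table, 82 had 0 tags in all 4 libraries and 0 passed the filter on low values. KRTAP5-1 had the highest level, with 0 and 1 tags on TCP and 26 and 37 on polymer X. KRTAP2-3 had 14 and 19 tags on TCP and 0 and 0 on polymer X. Both were named after their values were seen.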
